A study of Rattus norvegicus with 6 samples.

Results

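The genes of the PDGF system were examined in mural cells of the rat brain cortex, together with Cspg4 and Mcam, which encode surface proteins used to mark pericytes. They were taken by symbol as the 4 PDGF ligand genes (Pdgfa, Pdgfb, Pdgfc, Pdgfd), the 2 PDGF receptor genes (Pdgfra, Pdgfrb), Cspg4 and Mcam, and all 8 were among the 14607 genes of the table. RNA-Seq had been carried out on polyadenylated RNA of 6 samples from male Sprague-Dawley rats aged 4 to 5 weeks, for which the labels name no treatment or genetic change, 3 of vascular smooth muscle cells (VSMCs) and 3 of mid-capillary pericytes (mcPCs). VSMCs had been sorted by a lectin from arterioles held back on a filter, so that some ensheathing pericytes may be among them. These arterioles had been dissociated by a further, harsher digestion with Liberase TM and trypsin, whereas the mcPCs had only the mild digestion. Cell type and digestion thus cannot be told apart in any ratio between the cell types. Cells labelled for CD31 (endothelial cells) or CD11b (microglia and perivascular macrophages) had been removed before the lectin sort. The mcPCs were the cells of the filtrate left after endothelial and glial cells had been depleted, so that no marker of their own had selected them. The cortices of several rats were pooled for each isolation. Both cell types were obtained in the same 3 isolations, from the filter and from the filtrate, so that the 6 samples are not 6 independent isolations. Values are the authors' means of the 3 samples of a cell type. No value per sample was used, so that no SD between isolations and no test can be given, and whether the samples of the cell types overlap cannot be said. The intervals given are 95% counting intervals of the reads pooled over the 3 samples, which cover counting error only.

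PDGFs are dimeric growth factors that bind and pair 2 receptor tyrosine kinases. PDGF-A and PDGF-C act mainly through the alpha receptor, encoded by Pdgfra, whereas PDGF-B and PDGF-D activate the beta receptor, encoded by Pdgfrb. In developing brain vessels, endothelial cells release PDGF-B, and the beta receptor on mural cells is needed to recruit pericytes to the capillaries. The alpha receptor is best known in the brain from oligodendrocyte precursors and from fibroblasts. Cspg4 encodes the proteoglycan NG2 and Mcam encodes the adhesion molecule CD146, and both are found on mural cells in many tissues.

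In normalized counts the receptors and the abundant ligands differed between the cell types in opposite directions, although Pdgfrb was lower in mcPCs when TPM was taken as deposited. Pdgfrb was 2.25-fold and Pdgfra 5.96-fold higher in mcPCs, whereas Pdgfa was 5.15-fold and Pdgfb 2.27-fold higher in VSMCs. Mcam was 2.15-fold higher in VSMCs and Cspg4 was 1.14-fold higher in VSMCs. Pdgfc and Pdgfd were below 1 TPM (an abundance per transcript length, scaled to a fixed total) in both cell types. At a limit of 2-fold, 2 of 8 members favoured mcPCs, beside 21.6% of all genes, and 3 of 8 favoured VSMCs, beside 13.8% of all genes. Among genes of at least 0.8 TPM in VSMCs, the shares were 13.0% towards mcPCs and 15.7% towards VSMCs. At 1.5-fold, Pdgfd joined the receptors, which gave 3 members higher in mcPCs beside 30.0% of all genes and the same count of 3 higher in VSMCs beside 23.3%. At 4-fold, Pdgfra remained on the mcPC side (12% of all genes) and Pdgfa on the VSMC side (5.64% of all genes).

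**Figure D1:**
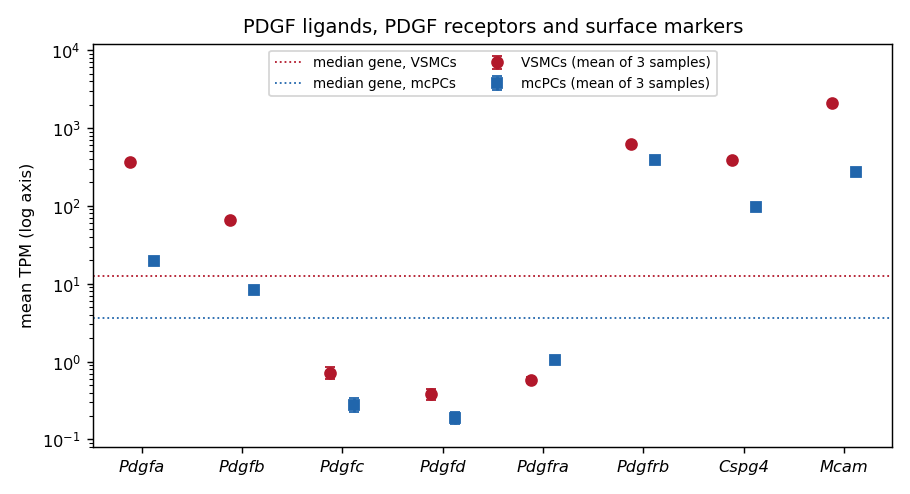
Mean TPM of each member (log axis) in VSMCs (red circles) and mcPCs (blue squares), each the authors' mean of 3 samples. Bars are 95% counting intervals and are mostly smaller than the symbols, and dotted lines mark the median gene of each cell type (12.7 TPM in VSMCs against 3.59 TPM in mcPCs). Pdgfrb, Cspg4 and Mcam stand at 95.2 TPM or more in both cell types, and Pdgfc, Pdgfd and Pdgfra stand below the median gene in both.

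The choice of scale matters for these ratios, because erythrocyte transcripts filled much of the mcPC libraries. The 19 erythrocyte genes of the table, mainly globins, took 66.9% of the TPM in mcPCs and 0.873% in VSMCs. TPM sums to the same total in each cell type, so that the erythrocyte share lowers the TPM of the other genes in mcPCs. The median gene had a log2 ratio (mcPCs over VSMCs) of -1.78 in TPM, against 0.01 in normalized counts. How much of that shift the erythrocyte genes make up was not tested. The mean depth was 62.0 M reads per sample in VSMCs and 48.0 M in mcPCs, of which 28.8 M were not from erythrocyte genes. The identity of the fractions was checked against their markers. All 10 smooth muscle markers were at least 2-fold higher in VSMCs, beside 13.8% of all genes. Among them Acta2, the smooth muscle actin, had 17233 TPM in VSMCs against 20.2 TPM in mcPCs. Kcnj8 and Abcc9, which encode the subunits of the pericyte potassium channel, had 17.2 and 12.4 TPM in VSMCs and 346 and 320 TPM in mcPCs. Of 18 mural cell markers 17 were in the table, 9 of them at least 2-fold higher in mcPCs (21.6% of all genes) and 3 in VSMCs (13.8%). The 3 were Des, Foxc1 and Notch3, with log2 ratios in normalized counts of -5.33, -1.86 and -1.31. Rgs5, a regulator of G protein signalling shared by mural cells, had a log2 ratio of -0.06 in normalized counts. Only genes with at least 1 read in every sample had been retained. A marker absent from the table may thus have had reads in mcPCs, and the sum of each marker list leaves it out. Markers of astrocytes, neurons and mature oligodendrocytes summed to 14.2, 3.21 and 6.71 TPM in VSMCs and to 20.1, 22.0 and 7.54 TPM in mcPCs. In normalized counts 4 of 5, 4 of 4 and 4 of 5 of those in the table were at least 2-fold higher in mcPCs (21.6% of all genes). Aldoc, a glycolytic enzyme, gave 13.6 TPM of the astrocyte sum in VSMCs, whereas Slc1a3, a glutamate transporter, had 0.306 TPM there against 12.7 TPM in mcPCs.

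Pdgfrb (ENSRNOG00000018461), the receptor for PDGF-B on mural cells, was among the most abundant transcripts of both cell types. Its mean level was 614 TPM in VSMCs (counting interval 613 to 616) against 388 TPM in mcPCs (387 to 389). It ranked above 98.2% of all genes in VSMCs and above 99.5% in mcPCs, where it was the gene of rank 77. The normalized count was 91756 in VSMCs and 206190 in mcPCs, a log2 ratio of 1.17 (1.16 to 1.17), and 80.8% of all genes had a lower ratio. As deposited, TPM gave the opposite direction with a log2 ratio of -0.66. Taken relative to the median gene the TPM ratio was 1.12, and it was 1.33 for counts scaled without erythrocyte genes and 0.59 for counts scaled to the same total. Pdgfrb was thus higher in mcPCs on 4 of the 5 scales and lower in mcPCs in TPM as deposited.

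Pdgfra (ENSRNOG00000002244), the receptor of PDGF-A, was weakly expressed in both cell types. Its level was 0.575 TPM in VSMCs (0.522 to 0.631) against 1.03 TPM in mcPCs (0.980 to 1.09), from 437 and 1476 reads pooled over the 3 samples of each cell type. Its log2 ratio in normalized counts was 2.58 (2.43 to 2.74), the highest of the 8 members, and 91.3% of all genes had a lower ratio. Pdgfra was higher in mcPCs on all 5 scales, with log2 ratios from 0.83 in TPM as deposited to 2.86 in counts scaled without erythrocyte genes. The study's own filter of at least 0.8 TPM in VSMCs would remove Pdgfra, Pdgfc and Pdgfd and keep the other 5 members. Inside each cell type the beta receptor dominated, with Pdgfrb at 1069 times the TPM of Pdgfra in VSMCs and 376 times in mcPCs. Pdgfrb thus made up 99.9% of the receptor TPM in VSMCs and 99.7% in mcPCs.

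Markers of cells known for the alpha receptor were read beside it, and they did not all lie in the same direction. Of 12 oligodendrocyte precursor markers 7 were in the table, which lacked Olig1, Sox10, Gpr17, Bcan and Lhfpl3. Their absence does not show a lack of reads in mcPCs, since a gene without a read in any 1 sample had been dropped. In normalized counts 6 of the 7 were at least 2-fold higher in mcPCs, beside 21.6% of all genes. The exception was Matn4, a matrix protein, with a log2 ratio of -0.35. Among the 6, C1ql1 had only 1.67 reads per sample in VSMCs and 4 in mcPCs. Neu4 had 0.332 TPM in VSMCs against 0.213 TPM in mcPCs. Olig2, a transcription factor of the oligodendrocyte lineage, had 0.0331 TPM in VSMCs against 0.805 TPM in mcPCs. Ptprz1, a phosphatase of these precursors and of astrocytes, had 0.0131 and 0.993 TPM. The VSMC values of Olig2 and Ptprz1 came from 3.01 and 4 reads per sample. The 7 markers summed to 2.45 TPM in VSMCs against 6.66 TPM in mcPCs. Of 12 fibroblast markers 11 were in the table, 8 of them at least 2-fold higher in mcPCs (21.6% of all genes) and 3 between the limits (64.6%). Their sums were 471 TPM in VSMCs and 317 TPM in mcPCs. The most abundant of them were the collagen genes Col3a1, with 300 TPM in VSMCs against 56.5 TPM in mcPCs (log2 ratio -0.63), and Col1a1, with 114 against 31.6 TPM (-0.13). Dcn, the proteoglycan decorin, had 18.7 TPM in VSMCs against 16.9 TPM in mcPCs, and Slc6a13, a GABA transporter of meningeal fibroblasts, had 3.06 and 132 TPM. The part of such cells in the Pdgfra value was not tested. In these bulk samples, fewer cells of a type and less RNA per cell cannot be told apart.

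Pdgfa (ENSRNOG00000001312), which encodes the A chain, was the most abundant ligand of both cell types and the member that favoured VSMCs most. It had 363 TPM in VSMCs (359 to 367) against 19.7 TPM in mcPCs (19.1 to 20.3), from 37160 and 3791 pooled reads. The level in VSMCs was above that of 97.0% of all genes. Normalized counts were 8918 in VSMCs and 1730 in mcPCs, a log2 ratio of -2.37 (-2.41 to -2.32), and 4.34% of all genes had a lower ratio. Pdgfa was at least 4-fold higher in VSMCs on each of the 5 scales, with log2 ratios from -4.20 in TPM as deposited to -2.19 in counts scaled without erythrocyte genes.

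Pdgfb (ENSRNOG00000017197), which encodes the B chain, followed the same direction with a smaller ratio. Its level was 65.0 TPM in VSMCs (64.0 to 66.0) against 8.28 TPM in mcPCs (8.01 to 8.55), from 15692 and 3696 pooled reads. The log2 ratio in normalized counts was -1.19 (-1.24 to -1.13), which 11.3% of all genes were below. It ran from -2.97 in TPM as deposited to -0.98 in counts scaled without erythrocyte genes, and the latter value is just inside the 2-fold limit. Since endothelial cells and platelets are known sources of PDGF-B, their markers were read beside it. In VSMCs, where Pdgfb was high, the endothelial genes Cldn5, a tight junction protein, Cdh5, the endothelial cadherin, and Tek, the angiopoietin receptor, had 0.643, 0.305 and 0.140 TPM. In mcPCs they had 15.4, 1.48 and 1.39 TPM. Other genes of the list were higher in VSMC TPM, with Slc2a1, a glucose transporter, at 115 against 23.9 TPM (log2 ratio in normalized counts -0.50), Ocln, a tight junction protein, at 37.7 against 8.45 TPM (-0.33) and Flt1, a VEGF receptor, at 8.20 against 1.41 TPM (-0.78). Of 18 endothelial markers 16 were in the table. In normalized counts 11 of them were at least 2-fold higher in mcPCs (21.6% of all genes) and 0 in VSMCs (13.8%). The list still summed to 654 TPM in VSMCs against 259 TPM in mcPCs, of which Esam, an adhesion molecule also known from platelets, gave 487 and 184 TPM. Of 10 platelet markers only Gp1ba and Itga2b were in the table, with 0.478 and 0.234 TPM in VSMCs and 0.0879 and 0.258 TPM in mcPCs. The absent platelet markers may have had reads in some samples. The part of endothelial cells and platelets in the Pdgfb value was not tested in either cell type.

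Pdgfc (ENSRNOG00000010695) and Pdgfd (ENSRNOG00000029148) encode the ligands that are secreted as latent forms and cut by proteases. Pdgfc had 0.711 TPM in VSMCs (0.596 to 0.841) against 0.278 TPM in mcPCs (0.226 to 0.338), from 135 and 99 pooled reads. Pdgfd had 0.380 TPM in VSMCs (0.322 to 0.446) against 0.188 TPM in mcPCs (0.159 to 0.222), from 151 and 141 pooled reads. Their direction depended on the scale. The log2 ratio in normalized counts was 0.52 (0.14 to 0.91) for Pdgfc and 0.70 (0.38 to 1.06) for Pdgfd, but in TPM as deposited the values were -1.32 and -0.98. Counts scaled to the same total gave -0.078 for Pdgfc and 0.27 for Pdgfd. Their effective lengths were 9.34% and 5.30% longer in mcPCs, whereas those of the other 6 members differed by less than 0.2% between the cell types.

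**Figure D2:**
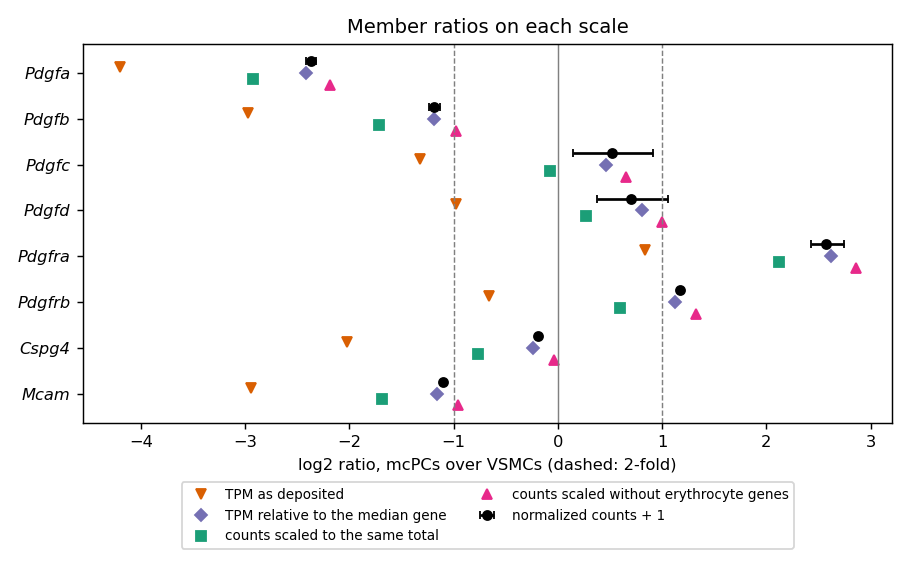
Log2 ratio of each member, mcPCs over VSMCs, on 5 scales, with the main scale of normalized counts plus 1 as black circles with 95% counting intervals, and dashed lines at 2-fold. Pdgfa, Pdgfb, Cspg4 and Mcam lie left of 0 and Pdgfra right of 0 on every scale, while Pdgfrb, Pdgfc and Pdgfd change side.

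Promoter sequences are shown for the pair of ligands that were higher in VSMCs and for Pdgfra, which had the highest ratio towards mcPCs, so that the bases upstream of members with opposite directions can be set side by side. They are the 250 bases before the annotated start in RefSeq on build GRCr8, read 5′ to 3′ on the gene's strand. Of the 8 members 6 had a sequence in that set, all but Pdgfrb and Mcam. Capitals mark matches to a GC box (GGGCGG) or a CCAAT box (CCAAT), each searched on both strands. The first is from chr12:20759116-20759365 on the plus strand, the second from chr7:113438344-113438593 on the minus strand and the third from chr14:33408517-33408766 on the minus strand.
Pdgfa: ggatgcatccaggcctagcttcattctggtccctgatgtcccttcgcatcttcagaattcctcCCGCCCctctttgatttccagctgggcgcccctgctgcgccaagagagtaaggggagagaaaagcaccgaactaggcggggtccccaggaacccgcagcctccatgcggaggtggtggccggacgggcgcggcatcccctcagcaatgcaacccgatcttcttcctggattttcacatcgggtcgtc
Pdgfb: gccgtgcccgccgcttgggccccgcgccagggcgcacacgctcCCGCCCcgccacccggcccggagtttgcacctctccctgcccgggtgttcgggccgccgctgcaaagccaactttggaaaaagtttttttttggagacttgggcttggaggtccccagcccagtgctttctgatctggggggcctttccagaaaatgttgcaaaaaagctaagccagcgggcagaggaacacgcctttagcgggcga
Pdgfra: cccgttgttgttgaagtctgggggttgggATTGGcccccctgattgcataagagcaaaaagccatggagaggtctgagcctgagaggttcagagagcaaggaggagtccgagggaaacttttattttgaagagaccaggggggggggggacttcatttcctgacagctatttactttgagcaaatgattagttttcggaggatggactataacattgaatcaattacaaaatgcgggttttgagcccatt
Pdgfa and Pdgfb each held 1 GC box on the opposite strand, starting 187 and 207 bases before the start, and Pdgfra held 1 CCAAT box on the opposite strand, 221 bases before the start. A GC box was found in 30.5% and a CCAAT box in 34.0% of the 33469 rat promoters of that length. The GC content was 60.8% for Pdgfa, 63.6% for Pdgfb and 47.2% for Pdgfra, beside a median of 51.2% over all promoters. None of the 3 held a TATA box (TATAAA, in 12.9% of all promoters) or a CArG box, the binding site of serum response factor (1.5%), in this window. An E-box (CANNTG, in 65.5% of all promoters) occurred in Pdgfa and Pdgfra and not in Pdgfb. Cspg4 held 2 GC boxes and 1 CCAAT box, Pdgfd held 1 GC box, and Pdgfc held no match to either.

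Cspg4 (ENSRNOG00000017208), the gene of NG2, was abundant in both cell types and, in normalized counts, was the member closest to equal between them, which it was not in TPM as deposited or in counts scaled to the same total. It had 388 TPM in VSMCs (387 to 389) against 95.2 TPM in mcPCs (94.8 to 95.7). Normalized counts were 88288 and 77443, a log2 ratio of -0.19 (-0.20 to -0.18), and 40.2% of all genes had a lower ratio. On the other scales it went from -2.03 in TPM as deposited to -0.035 in counts scaled without erythrocyte genes, so that Cspg4 was not higher in mcPCs on any of them.

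Mcam (ENSRNOG00000007726), the gene of CD146, was the most abundant member in VSMCs and stood below Pdgfrb in mcPCs. The level was 2120 TPM in VSMCs (2115 to 2125) against 275 TPM in mcPCs (274 to 276). Normalized counts were 164927 and 76541, a log2 ratio of -1.11 (-1.12 to -1.10), which put Mcam at least 2-fold higher in VSMCs. The log2 ratio was -2.95 in TPM as deposited and -0.96 in counts scaled without erythrocyte genes, so that it was lower in mcPCs on all 5 scales.

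In VSMCs the order of levels was Mcam, Pdgfrb, Cspg4, Pdgfa, Pdgfb, Pdgfc, Pdgfra and Pdgfd, in which the counting intervals of Pdgfc and Pdgfra overlapped. In mcPCs the order was Pdgfrb, Mcam, Cspg4, Pdgfa, Pdgfb, Pdgfra, Pdgfc and Pdgfd, with no overlap between neighbours. The orders differed in the place of Mcam against Pdgfrb and in that of Pdgfra against Pdgfc.

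The fold limit was also applied on the other scales, where the share of all genes and the number of members past it both moved. In TPM as deposited 0 of 8 members were at least 2-fold higher in mcPCs (8.0% of all genes) and 5 were higher in VSMCs (74.6% of all genes). Relative to the median gene, TPM gave 2 (21.8% of all genes) and 3 (13.9%), which were the members named by normalized counts. For counts scaled to the same total it was 1 member, Pdgfra, in mcPCs (15.4% of all genes) and 3 in VSMCs (28.7%). Scaling without erythrocyte genes gave 2 members in mcPCs (24.4% of all genes) and 1, Pdgfa, in VSMCs (11.4%), since Pdgfb and Mcam then fell just short of 2-fold.

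Ratios between members inside a cell type do not depend on how the cell types are scaled to each other. The 4 ligands summed to 429 TPM in VSMCs against 28.4 TPM in mcPCs, and the 2 receptors to 615 and 389 TPM. Ligand transcripts were thus present at 0.698 per receptor transcript in VSMCs and at 0.0730 in mcPCs, a 9.55-fold difference. Pdgfa over Pdgfb was 5.59 in VSMCs and 2.38 in mcPCs. The A chain gave 84.6% of the ligand TPM in VSMCs and 69.3% in mcPCs, and the B chain gave 15.1% and 29.1%. Pdgfb over Pdgfrb, the pair that signals from endothelium to mural cells, was 0.106 in VSMCs and 0.0213 in mcPCs.

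The marker ratios also shifted. Mcam over Pdgfrb was 3.45 in VSMCs and 0.708 in mcPCs, and Pdgfrb over Cspg4 was 1.58 in VSMCs and 4.08 in mcPCs. Mcam over Cspg4 was 5.47 and 2.89. The 3 genes were therefore in different proportions in the cell types, with relatively more Pdgfrb in mcPCs and relatively more Mcam in VSMCs. The spread of these ratios between isolations was not available to set beside the differences.

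**Figure D3:**
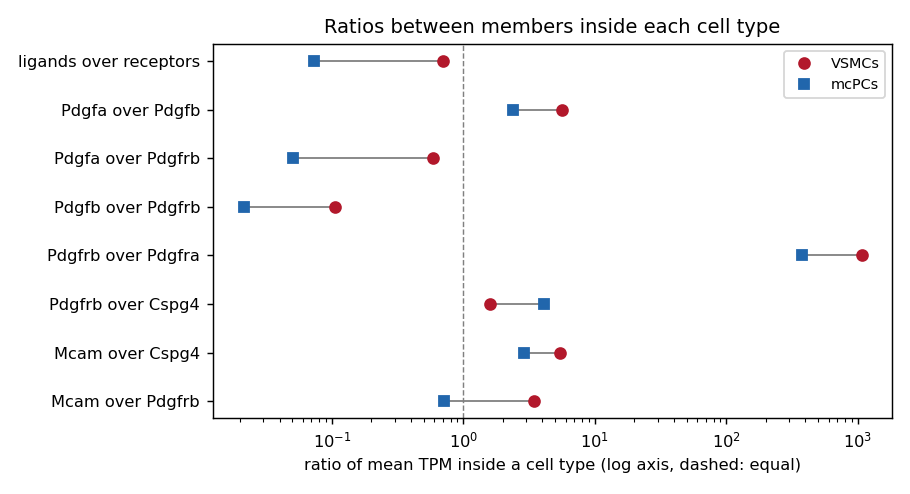
Ratios of mean TPM between members inside VSMCs (red circles) and mcPCs (blue squares) on a log axis, with a dashed line where both genes are equal. The ratio of summed ligands over summed receptors was 0.698 in VSMCs and 0.0730 in mcPCs, and Mcam over Pdgfrb lies on either side of 1.

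The genes around the ligands were then examined, from a list of 18 genes of PDGF release and extracellular control, of which 14 were in the table. On the scale of normalized counts, 3 were at least 2-fold higher in mcPCs (21.6% of all genes) and 6 in VSMCs (13.8%). The median log2 ratio was -0.23 beside 0.01 for all genes. Since TPM is given as deposited, a ratio above 0 in normalized counts can stand beside a lower TPM in mcPCs. In TPM as deposited, 8.0% of all genes were past 2-fold towards mcPCs and 74.6% towards VSMCs. Beside these shares the same list of 14 genes had 1 towards mcPCs and 9 towards VSMCs. The lists that follow likewise had 1 and 20 (receptor binding proteins), 1 and 15 (brakes), 1 and 2 (class III kinases) and 0 and 13 (NG2 and MCAM partners). Plau, the urokinase that can cut PDGF-D, had 132 TPM in VSMCs against 0.287 TPM in mcPCs, a log2 ratio of -7.09. Plat, the tissue plasminogen activator that can cut PDGF-C, had 295 and 23.1 TPM with a ratio of -1.87, and is named for that role although it lies outside the naming rule. Both protease genes were thus higher in VSMCs, whereas Pdgfc and Pdgfd, the genes of their substrates, were below 1 TPM in both cell types.

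Extracellular binders and matrix genes of the list lay in both directions. Thbs1, the matrix protein thrombospondin, had a log2 ratio of -3.59 (116 TPM in VSMCs against 2.79 TPM in mcPCs). Tgm2, a transglutaminase that crosslinks matrix, had -2.46. Ndst1, which sulfates the heparan sulfate chains that hold PDGF-B at the cell surface, had -2.26, but its paralog Ndst2 had 1.30. Agrn, a heparan sulfate proteoglycan of basement membranes, had 1.31 (218 and 153 TPM) and Lrp1, an endocytic receptor that associates with the beta receptor, had 0.99. Nrp2, a coreceptor of semaphorins and VEGF, had 4.18 but only 0.192 TPM in VSMCs against 1.03 TPM in mcPCs.

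The signalling proteins that bind activated PDGF receptors were spread about as all genes were. Of 31 listed genes 28 were in the table, 17 of them (60.7%) between the 2-fold limits, where 64.6% of all genes lay. There were 6 at least 2-fold higher in mcPCs (21.6% of all genes) and 5 in VSMCs (13.8%), with a median log2 ratio of 0.02. Pik3cd, a catalytic subunit of phosphoinositide 3-kinase best known from leukocytes, had 7.54 TPM in VSMCs against 41.2 TPM in mcPCs, a log2 ratio of 4.25. Slc9a3r1, a scaffold that binds the end of the beta receptor, had 43.2 and 62.2 TPM with 2.35. Stat5a and Src, a transcription factor and a tyrosine kinase recruited to the receptors, had 2.34 and 1.34. On the VSMC side stood the adaptors Grb14 with -2.13, Gab2 with -1.52 and Crk with -1.14, and the transcription factor Stat3 with -1.23 (116 and 14.2 TPM).

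Among 17 genes that restrain receptor signalling, 2 were at least 2-fold higher in mcPCs (21.6% of all genes) and 4 in VSMCs (13.8%). The other 11 (64.7%) lay between, where 64.6% of all genes lay, and the median log2 ratio was -0.29. Socs3, an inhibitor of cytokine signalling induced by STAT3, had 430 TPM in VSMCs against 11.4 TPM in mcPCs, a log2 ratio of -3.49. Ptpn11, the phosphatase SHP2 that binds the receptors, had -1.45, Lrig1, a membrane protein that promotes receptor degradation, had -1.40, and the Ras pathway inhibitor Spry4 had -1.20. In the other direction, Socs1 had 2.34, Ptprj, a receptor phosphatase that acts on the beta receptor, had 0.54, and Spred2 had 0.48. Ptpn6, the phosphatase SHP1 of blood cells, had the highest ratio of the list with 6.67 (0.283 and 9.82 TPM).

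The nearest relatives of the PDGF receptors, the class III receptor kinases, were represented by 5 genes of 7 listed. Csf1r, the receptor of macrophages and microglia, had 0.111 TPM in VSMCs against 3.94 TPM in mcPCs, a log2 ratio of 6.85, and its ligand Il34 had 154 and 113 TPM with 1.39. Its other ligand Csf1 had 0.77. Kit, the stem cell factor receptor, had 12.2 and 7.64 TPM with 1.13, whereas Kitlg, its ligand, had 25.2 and 2.13 TPM with -1.62. At 2-fold, 3 of the 5 favoured mcPCs (21.6% of all genes) and 1 favoured VSMCs (13.8%), with a median of 1.13.

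Ptpn6 and Csf1r are also genes of blood and immune cells, and markers of microglia and macrophages were read beside them. Of 11 such markers, a list that includes Csf1r, 5 were in the table, and the absent ones may have had reads in some samples. All 5 were at least 2-fold higher in mcPCs, beside 21.6% of all genes. Their summed level was 0.683 TPM in VSMCs against 9.45 TPM in mcPCs, of which Csf1r itself gave 0.111 and 3.94 TPM. The complement gene C1qa had 0.0662 and 2.28 TPM. The part of these cells in the values of Ptpn6, Csf1r and Pik3cd was not tested.

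Partners of NG2 and MCAM were read from a list of 14 genes, all in the table. At 2-fold, 1 was higher in mcPCs (21.6% of all genes) and 5 were higher in VSMCs (13.8%), with a median log2 ratio of -0.53. Lama5, a laminin chain of vascular basement membranes, had 315 TPM in VSMCs against 2.67 TPM in mcPCs, a log2 ratio of -5.06. Lama4, the laminin chain that binds MCAM, had 131 and 41.4 TPM with 0.16. Lgals3, a galectin that binds NG2, had -1.31, Pawr, an apoptosis regulator, had -2.50, and Fgf2, a growth factor bound by NG2, had -1.78 at 1.16 TPM in VSMCs against 0.0847 TPM in mcPCs. Gripap1 with -0.02 and Adam10, a protease that sheds membrane proteins, with 0.32 lay close to the median gene. Wnt5a, a Wnt ligand that acts through MCAM in some cells, had 1.32 at 1.23 and 0.863 TPM.

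**Figure D4:**
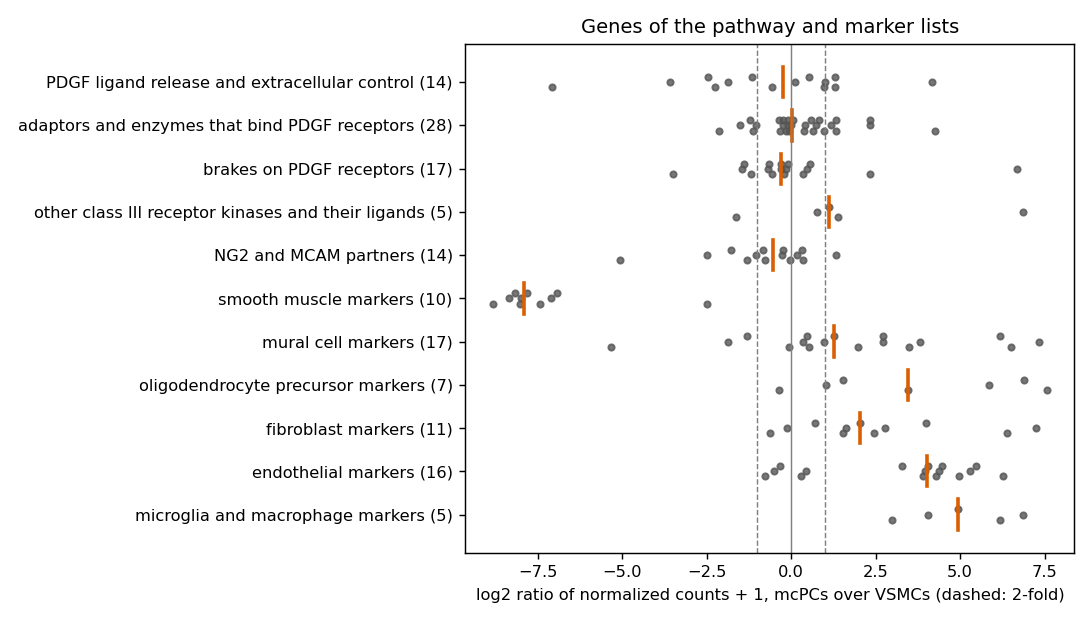
Log2 ratio of normalized counts plus 1, mcPCs over VSMCs, of each gene (grey points) of 5 pathway lists and 6 marker lists, with the number in the table in parentheses, the list median as an orange bar and dashed lines at 2-fold. The adaptors have a median of 0.02 and the NG2 and MCAM partners one of -0.53, whereas the 10 smooth muscle markers all lie left of -2.

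Genes with the most similar levels were sought for each member as the 3 nearest by Euclidean distance in log2(TPM + 0.1) over the 2 cell types. With 2 values per gene such likeness is loose, and it is a description only. Pdgfa was nearest to Filip1l (distance 0.02, 360 and 19.5 TPM), Id2 (0.10) and Pacsin2 (0.12). Pdgfb lay near Ipo5 (0.06), Ephx3 (0.07) and Cacna1c (0.07), and Cspg4 near AABR07033465.1 (0.06), Ubl5 (0.08) and Gper1 (0.08). The neighbours of the remaining abundant members were farther away, since those near Pdgfrb included Cd81 (0.32) and Tmsb10 (0.35), and the nearest to Mcam were Txn1 (0.27), Mfge8 (0.50) and Atp5b (0.57). The weakly expressed members had close neighbours. Pdgfra was nearest to Bub1b (0.02), Mmrn2 (0.03) and Cenpw (0.04), Pdgfc to Bmp3 (0.02), Tcf21 (0.04) and Papln (0.04), and Pdgfd to Rn60_1_1675.1 (0.06), Peg12 (0.08) and Lrrc27 (0.09).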

How the data were processed

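Polyadenylated RNA of 3 VSMC and 3 mcPC samples was sequenced in 4 runs per library on stranded libraries. The authors trimmed reads with Eoulsan, quantified Ensembl transcripts of Rnor_6.0 with Salmon 0.8.0 (tools and build per the submitters' processing notes), collapsed them to genes with tximport and scaled them with DESeq2. They retained a gene only if every sample had at least 1 read of it. The deposited table gives means per cell type. TPM values are the authors' mean abundances. The estimated counts deposited are means per run, read so because 64.4% (VSMCs) and 67.2% (mcPCs) of them are whole reads over 12 runs (tolerance 0.001), and were multiplied by 4 runs and 3 samples to give pooled reads. Normalized counts are signal values deposited by the authors, counts divided by DESeq2 factors. Effective lengths are also deposited by the authors. The authors' fold change (log2), its standard error, p-values, adjusted p-values and overall mean, all deposited by the authors, were not used.

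Log2 ratios were taken as mcPCs over VSMCs of normalized counts plus 1. Alternatives were TPM (pseudocount 0.01) as deposited or relative to the median gene, counts (pseudocount 0.1) scaled to the same total with or without the erythrocyte genes, and a pseudocount of 10. Intervals are exact Poisson for levels and exact conditional binomial (Clopper-Pearson) for ratios, at 95%. As only means were used, no test was run. Members and lists were chosen with earlier results of these data known. Genes named are the members, the 4 highest and 4 lowest ratios per pathway list among genes of at least 1 TPM in either cell type, and 3 neighbours per member, of which 1 is not reported here. Marker genes and Plat were chosen for their roles after values were seen. Erythrocyte genes are a marker list plus every gene described as a hemoglobin or globin. Promoters matched by symbol to RefSeq (GRCr8), from which no gene coordinates were taken for Rnor_6.0. The steps were tested on simulated data. The versions were scipy 1.17.1, pandas 2.3.3, numpy 2.4.6 and matplotlib 3.10.9 under Python 3.11.15.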

Additional observations from a re-analysis of the deposited data

How the results depend on the processing

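Of the 58 values recomputed under an alternative, 24 stayed within the counting interval of the ratio or, for counts of genes, within 1.5 times the count reported. Log2 ratios (mcPCs over VSMCs) changed sign for Pdgfrb, which was past 2-fold in normalized counts and had -0.66 in TPM as deposited, and for Pdgfc and Pdgfd, which were not past 2-fold, Pdgfc also in counts scaled to the same total. In the same TPM the other ratios were 0.83 for Pdgfra, -4.20 for Pdgfa, -2.97 for Pdgfb, -1.32 for Pdgfc, -0.98 for Pdgfd, -2.03 for Cspg4 and -2.95 for Mcam. Relative to the median gene, TPM gave 1.12 for Pdgfrb, -2.42 for Pdgfa, -0.24 for Cspg4 and -1.16 for Mcam. Counts scaled to the same total gave 2.12 for Pdgfra, 0.59 for Pdgfrb, -2.92 for Pdgfa, -1.72 for Pdgfb, -0.078 for Pdgfc, 0.27 for Pdgfd, -0.77 for Cspg4 and -1.69 for Mcam. Without erythrocyte genes these were 2.86 for Pdgfra, 1.33 for Pdgfrb, -2.19 for Pdgfa, -0.98 for Pdgfb, -0.035 for Cspg4 and -0.96 for Mcam. These shifts follow from the scaling itself, which moved the median gene to -1.78 in TPM, -0.55 in counts of the same total and 0.18 without erythrocyte genes. Members past 2-fold in mcPCs then numbered 0 in TPM and 1 in counts of the same total, and those past it in VSMCs 5 in TPM and 1 without erythrocyte genes. A limit of 4-fold left 1 in each direction. A pseudocount of 10 moved no ratio beyond its counting interval. Of all genes, 3160 passed 2-fold towards mcPCs, which fell to 1590 among genes of at least 0.8 TPM in VSMCs and to 2012 among genes of at least 1 TPM in either cell type. These were 13.0% of 12218 and 16.1% of 12510 genes, beside 15.7% and 15.2% towards VSMCs. The larger share towards mcPCs over all genes was thus not found among genes of at least 0.8 TPM in VSMCs. No paired analysis was possible because the values used are means per cell type, and for the same reason no replicate was left out in turn. Depth limits Pdgfc and Pdgfd, with 99 to 151 pooled reads per cell type, and the spread between isolations is not known for any value.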
